A study of Mus musculus with 6 samples.

Results

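The EGF receptor (ErbB) family and its ligands were described here as 10 genes chosen by name: the 4 receptor genes Egfr, Erbb2, Erbb3 and Erbb4 and the 6 ligand genes Areg, Ereg, Hbegf, Tgfa, Nrg1 and Btc. All 10 had a row among the 23284 gene symbols of the count table. RNA was sequenced from epithelium separated from the esophagus of E12.5 mouse embryos. The 3 p63KO samples were homozygous for a Trp63-CreERT2 allele, a knock-in at the gene of the transcription factor p63, and the 3 control samples were littermates, which the sample titles call WT; whether they carried 1 copy of the allele is not stated. The p-values cover the spread from sample to sample. How many embryos went into a sample is not stated, so how much of that spread is technical is not known.

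ErbB receptors are tyrosine kinases of the cell surface. A ligand is made as a membrane-bound precursor, cut free by a metalloprotease, and drives receptors into pairs that switch on the Ras-Erk and phosphoinositide 3-kinase cascades. Egfr binds Egf, Tgfa, Areg, Btc, Hbegf and Ereg, Erbb3 and Erbb4 bind neuregulins, and Erbb2 binds no ligand of its own and serves as the shared partner. In stratified epithelia such as skin, Egfr is mainly a receptor of the basal layer, where it supports growth.

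Total counts lay between 13335328 and 16506401 in p63KO and between 16948971 and 20093838 in control. Trp63 averaged 71.4 ± 8.03 CPM in p63KO and 602.9 ± 63.9 CPM in control (SD, n = 3 each; CPM are TMM-scaled counts relative to library size), with at most 76.7 CPM in any p63KO library and at least 550.6 CPM in any control library, so every library matched its label. The epithelial marker Epcam averaged 947.3 ± 5.13 CPM in p63KO and 851.2 ± 6.61 CPM in control, while the endothelial markers summed to at most 10.3 CPM in any p63KO library and 10.8 CPM in any control library. Control replicate 3 stood apart from the other libraries on the second principal component, with 8.67% of the variance. It also held 58 genes whose level exceeded 5 CPM and was more than 4 times that of the next library (1 CPM added). In p63KO replicate 2, Xist was at 1.59 CPM, against at least 514.4 CPM in every other library. Ddx3y, a gene of the Y chromosome, was present in every library, from 33.8 CPM in p63KO replicate 1 to 104.9 CPM in p63KO replicate 2. Every library but p63KO replicate 2 thus held both RNAs, so Xist does not sort the libraries into female and male.

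Egfr was the member that changed most: its RNA in p63KO was 9.89% of the control level. Erbb2 fell slightly, Erbb3 and Erbb4 did not pass the test, and the ligand gene Tgfa rose. Of the 10 members, 7 had enough counts to test, and of these 2 fell, 1 rose and 4 did not pass (edgeR quasi-likelihood test, adjusted p under 0.05 over all 13849 genes tested). Over all tested genes, 29.6% changed in either direction, 14.3% lower and 15.3% higher in p63KO. The count of 3 of 7 tested members is read only against that share. The 3 p63KO and 3 control values did not overlap for Egfr, Erbb2, Tgfa and Btc, 4 of the 7 tested members, as for 44.1% of all tested genes. In RNA from a whole epithelium, fewer cells that carry a transcript and less of it per cell cannot be told apart.

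**Figure D1:**
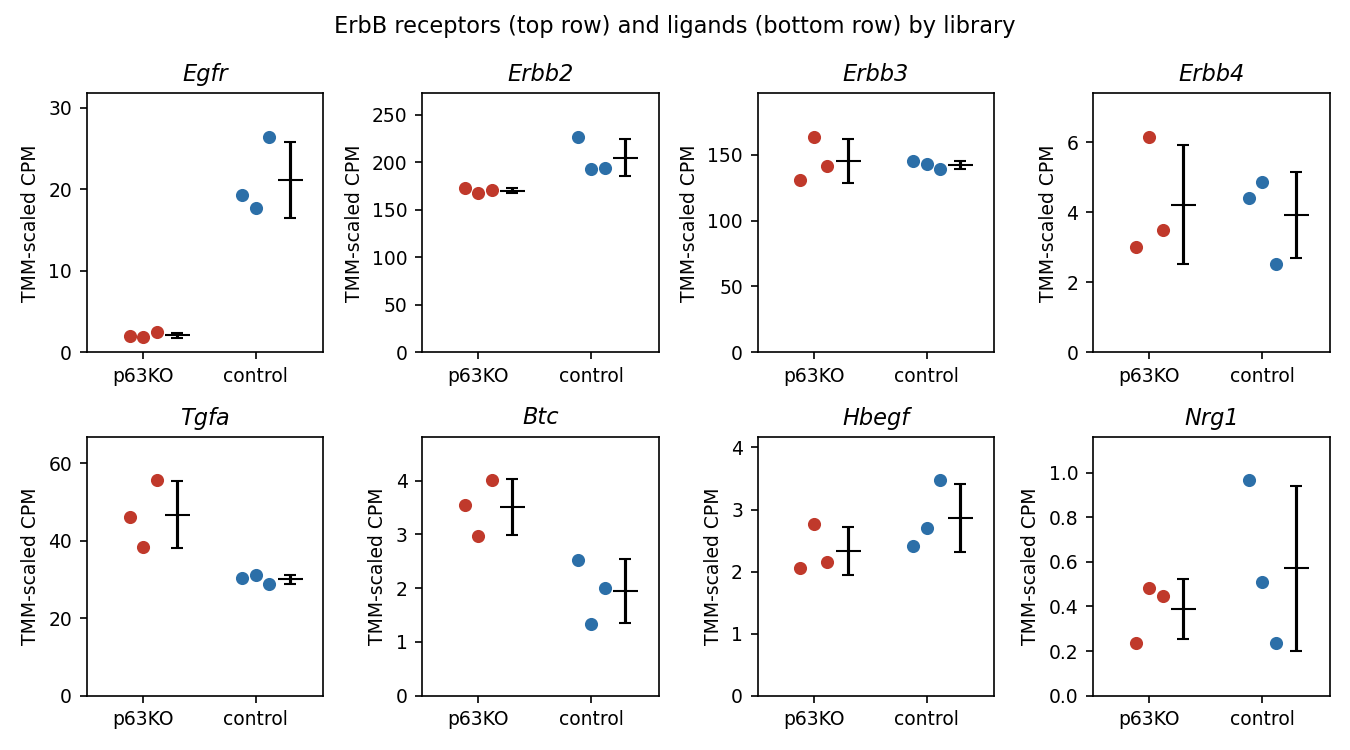
TMM-scaled CPM (y axes, linear from 0) of the 4 receptors (top row) and of Tgfa, Btc, Hbegf and Nrg1 (bottom row) in each p63KO library (red) and control library (blue), with the mean and SD in black (n = 3 each). Egfr lay between 1.87 and 2.45 CPM in p63KO and between 17.7 and 26.4 CPM in control, while the groups overlapped for Erbb3, Erbb4, Hbegf and Nrg1.

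Egfr, the receptor for most ligands of the set, had 1.95, 1.87 and 2.45 CPM in the p63KO libraries, against 19.3, 17.7 and 26.4 CPM in the control libraries. Every p63KO library lay far below every control library. These levels rested on 33, 27 and 33 reads in p63KO, against 359, 346 and 449 reads in control. The log2 fold change was -3.34 (SE 0.21, edgeR adjusted p = 4.58e-06), which ranked 127 of 13849 tested genes from the most negative. For comparison, the log2 fold change of Trp63 itself was -3.08 (SE 0.11). With any 1 library left out, the value for Egfr stayed between -3.46 and -3.15.

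Erbb2, the partner without a ligand, had 172.6, 167.5 and 170.5 CPM in p63KO, against 227.1, 192.5 and 194.3 CPM in control. The groups did not overlap, and control replicate 1 was the highest library. The log2 fold change was -0.27 (SE 0.07, edgeR adjusted p = 0.0237), or 83.2% of the control level. This edgeR call did not hold without p63KO replicate 1, 2 or 3 (adjusted p = 0.0536, 0.0943 and 0.0706) or without control replicate 1 (0.0611), while the direction was the same in each.

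Erbb3, a receptor with little kinase activity of its own that signals as a partner of Erbb2, had 130.7, 163.7 and 141.5 CPM in p63KO, against 145.2, 142.8 and 139.1 CPM in control. The p63KO values spanned the whole control range. Its log2 fold change was 0.03 (SE 0.08, edgeR adjusted p = 0.837), and the 95% interval ran from -0.13 to 0.19.

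Erbb4, the other neuregulin receptor, was low, at 3.01, 6.16 and 3.49 CPM in p63KO, against 4.40, 4.85 and 2.53 CPM in control. The groups overlapped, with p63KO replicate 2 the highest library and control replicate 3 the lowest. The log2 fold change was 0.10 (SE 0.34, edgeR adjusted p = 0.868), with an interval from -0.57 to 0.76. Its sign turned without p63KO replicate 2 (-0.26) or control replicate 3 (-0.14).

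Because Erbb2 is the partner that the other receptors share, each receptor's count was also set against that of Erbb2 in the same library, where library size and gene length cancel in the comparison of groups. The log2 ratio of Egfr to Erbb2 was -6.45, -6.46 and -6.10 in p63KO, against -3.56, -3.44 and -2.88 in control. The groups were well separated, and the mean difference was -3.04 (p63KO minus control). The ratio of Erbb3 to Erbb2 was higher by 0.29 on the log2 scale, at -0.23 ± 0.19 in p63KO and -0.52 ± 0.11 in control (SD, n = 3 each). The log2 fold change was -0.27 for Erbb2 and 0.03 for Erbb3, so the lower Erbb2 count enters this difference and no rise of Erbb3 is read from it. For Erbb4 the difference was 0.35, at -5.39 ± 0.56 in p63KO and -5.74 ± 0.47 in control, and the groups overlapped. The two-sided exact permutation test gave p = 0.10 for Egfr and for Erbb3, the smallest p that 3 against 3 samples allow, and p = 0.50 for Erbb4. Adjusted over the 3 ratios, these exact permutation values were 0.15, 0.15 and 0.50, so no ratio could pass the threshold in this design.

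**Figure D2:**
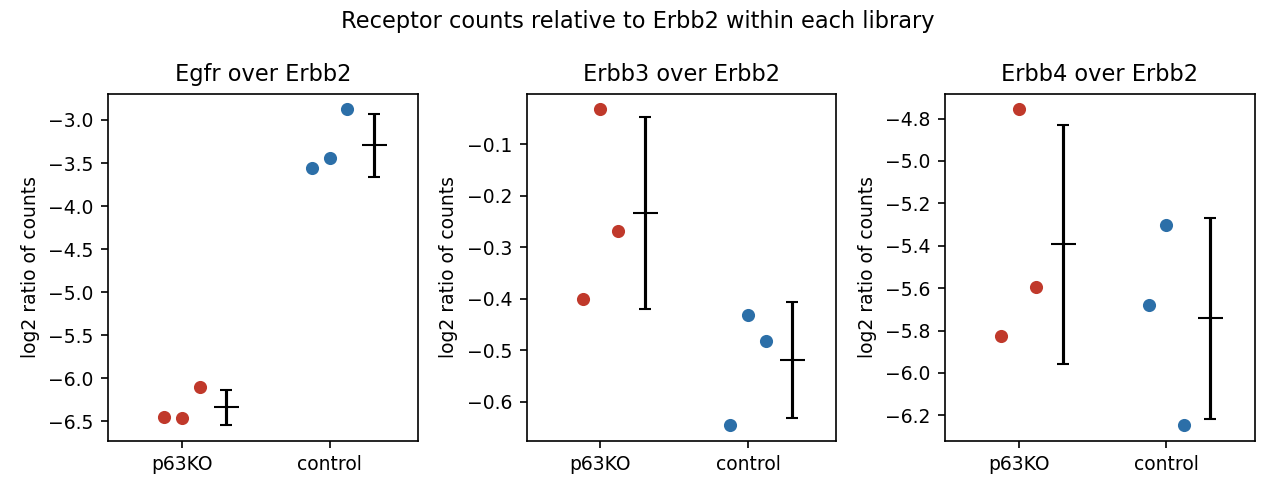
Log2 ratio of the counts of Egfr, Erbb3 and Erbb4 to those of Erbb2 (y axes, each with its own range) in each p63KO library (red) and control library (blue), with mean and SD in black (n = 3 each). The Egfr ratio averaged -6.34 in p63KO and -3.29 in control, and the p63KO and control values for Erbb4 overlapped.

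Tgfa, which makes transforming growth factor alpha, a ligand of Egfr, had 46.1, 38.4 and 55.7 CPM in p63KO, against 30.3, 31.2 and 28.9 CPM in control. All p63KO libraries were above all control libraries, and the p63KO libraries differed more among themselves. The log2 fold change was 0.63 (SE 0.13, edgeR adjusted p = 0.00473), a 1.55-fold rise. The value stayed between 0.49 and 0.78 with 1 library left out, and the call held in each of those fits.

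Btc, which makes betacellulin, a ligand of Egfr and Erbb4, had 3.54, 2.98 and 4.01 CPM in p63KO, against 2.52, 1.33 and 2.0 CPM in control. The groups did not overlap, but the gene was low, with 157 reads in the 3 p63KO libraries together and 107 in the control libraries. Its log2 fold change of 0.85 (SE 0.29) did not pass (edgeR adjusted p = 0.0583). It passed with limma-voom (adjusted p = 0.0476), with the replicate number as a block in edgeR (adjusted p = 0.0393) and, in edgeR, without control replicate 1 (adjusted p = 0.0453), at values of 0.88, 0.87 and 1.08.

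Hbegf, the heparin-binding ligand of Egfr and Erbb4, had 2.07, 2.77 and 2.15 CPM in p63KO, against 2.42, 2.71 and 3.47 CPM in control. The groups overlapped, and its log2 fold change of -0.30 (SE 0.26, edgeR adjusted p = 0.448) did not pass. The 95% interval ran from -0.81 to 0.22.

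The other 3 ligand genes were too low to test. Nrg1, the neuregulin that binds Erbb3 and Erbb4, had 4, 7 and 6 reads in p63KO, against 18, 10 and 4 reads in control. Its depth-scaled ratio of p63KO to control was 0.671, with an exact 95% interval from 0.349 to 1.24 that covers counting error only, so a difference was not detectable at this depth. Areg, the amphiregulin gene, had 2, 0 and 1 reads in p63KO, against 0, 0 and 1 reads in control. Ereg, the epiregulin gene, had no read in any library, which allows up to 0.0677 CPM over the p63KO libraries and 0.0536 CPM over the control libraries at a floor of 3 counts a group.

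**Figure D3:**
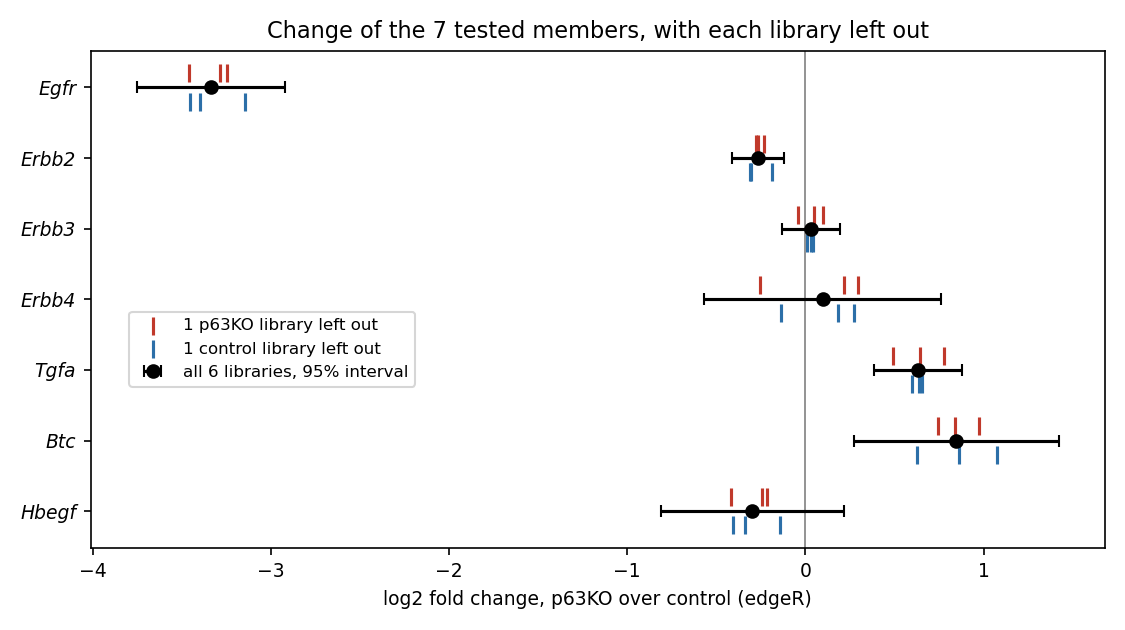
Log2 fold change of p63KO over control (x axis, edgeR) for the 7 tested members, with points and bars for all 6 libraries (95% interval, normal approximation) and ticks for the fits that leave out 1 p63KO library (red) or 1 control library (blue). Egfr stayed between -3.46 and -3.15 and Tgfa between 0.49 and 0.78, while the ticks of Erbb3 and Erbb4 fell on both sides of 0.

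The levels of different genes were compared per kilobase of exon, with the merged exon lengths of a GRCm38 annotation, since the annotation behind the counts is not given. In p63KO, Erbb2 was highest at 32.7 ± 0.492 CPM per kb, then Erbb3 at 24.2 ± 2.80, Tgfa at 7.20 ± 1.33, Btc at 0.776 ± 0.114, Hbegf at 0.482 ± 0.0794, Erbb4 at 0.342 ± 0.138 and Egfr at 0.184 ± 0.0278 CPM per kb (SD, n = 3 each). In control, the order was Erbb2 at 39.3 ± 3.74 CPM per kb, Erbb3 at 23.7 ± 0.509, Tgfa at 4.64 ± 0.180, Egfr at 1.87 ± 0.412, Hbegf at 0.593 ± 0.113, Btc at 0.432 ± 0.133 and Erbb4 at 0.318 ± 0.0996 CPM per kb. Egfr thus stood at place 7 of the 10 members in p63KO, against place 4 in control, while Erbb2, Erbb3 and Tgfa held the first 3 places in both groups. Among neighbours in these orders, the values of Hbegf and Erbb4 overlapped in p63KO, and those of Hbegf and Btc and of Btc and Erbb4 overlapped in control. Nrg1, Areg and Ereg were below 0.1 CPM per kb in every library.

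The replicates of a group were not equally close for all members. In p63KO replicate 2, Erbb3, Erbb4, Hbegf and Nrg1 were at their highest of the p63KO libraries, and Egfr, Erbb2, Tgfa and Btc were at their lowest. In control replicate 3, Egfr and Hbegf were at their highest of the control libraries, and Erbb3, Erbb4, Tgfa and Nrg1 were at their lowest. These are the libraries that stood apart in Xist and on the second principal component, and the part of those features in the members' values was not tested. Among 3 libraries any gene with distinct values has a highest and a lowest one, so such places are common. How often these libraries hold them over all tested genes was not counted.

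The promoters of the 3 members that passed the test are shown because they mark where transcription of the changed genes starts. The windows are the 250 bases before the RefSeq transcription start in build GRCm38.p6, which differs from the mm9 build of the counts. For Egfr the window is chr11:16751953-16752202, for Erbb2 chr11:98412234-98412483 and for Tgfa chr6:86194972-86195221, all on the plus strand. Capitals mark matches to CNNGNNNNNNCNNG, a loose form of the paired core of p53-family response elements, which reads the same on both strands.
Egfr: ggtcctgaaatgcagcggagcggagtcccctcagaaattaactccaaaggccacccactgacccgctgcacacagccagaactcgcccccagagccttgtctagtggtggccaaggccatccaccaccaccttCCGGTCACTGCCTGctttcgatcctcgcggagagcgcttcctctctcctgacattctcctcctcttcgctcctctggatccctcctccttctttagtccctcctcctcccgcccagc
Erbb2: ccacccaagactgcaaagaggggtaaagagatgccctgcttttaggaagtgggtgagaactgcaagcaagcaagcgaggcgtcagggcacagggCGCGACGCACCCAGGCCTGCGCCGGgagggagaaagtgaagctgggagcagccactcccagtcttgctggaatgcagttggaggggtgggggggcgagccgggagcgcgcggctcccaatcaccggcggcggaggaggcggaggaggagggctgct
Tgfa: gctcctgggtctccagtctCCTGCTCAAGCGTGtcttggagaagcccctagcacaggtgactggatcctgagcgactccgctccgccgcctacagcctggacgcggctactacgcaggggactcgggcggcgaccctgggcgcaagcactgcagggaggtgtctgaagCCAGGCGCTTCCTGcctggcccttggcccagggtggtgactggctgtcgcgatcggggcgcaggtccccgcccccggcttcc
Egfr held 1 match, starting 117 bases before the transcription start. Erbb2 held 2 overlapping matches and Tgfa held 2 separate ones. This loose pattern occurs in 63.5% of the 32851 windows of the promoter table, so a match singles out no gene. The stricter pattern CATGNNNNNNCATG, found in 0.49% of all windows, was in none of the 3. The GC box GGGCGG, searched on both strands and present in 32.7% of all windows, had 1 match in Egfr, 2 in Tgfa and 0 in Erbb2. TATAAA, found in 12.4% of all windows, was in none of the 3. A letter match describes the sequence and shows no binding. The promoter table held 6 of the 10 members.

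The genes whose pattern across the 6 libraries was most like each receptor were ranked by the Pearson correlation of log2(CPM + 1) among tested genes with a mean of at least 10 CPM. For Egfr these were Elf5 (r = 0.998), Zfp750 (0.997) and Fam115c (0.997), with log2 fold changes of -1.93, -5.91 and -1.09. For Erbb2 they were Cchcr1 (r = 0.988), Zbtb7a (0.985) and Cyp26a1 (0.983), with log2 fold changes of -0.37, -0.38 and -1.24. For Erbb3 they were Shprh (r = 0.980), Htt (0.961) and Zfp330 (0.944), and for Erbb4 Zfp451 (0.981), Ccnt1 (0.981) and Npepps (0.976). None of these last 6 passed the test (edgeR adjusted p of at least 0.764). All correlations are over the same 6 libraries, so for Egfr and Erbb2 they carry the difference between the groups. For every receptor the genes named are the highest of all those searched. How high the best r would be by chance in such a search was not tested. The values for Erbb3 and Erbb4 therefore give a ranking only, and no shared pattern is read from them.

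Of the 122 other pathway genes in 6 lists, 115 were tested, and 24 rose, 22 fell and 69 did not pass. The called share was 40.0% of those tested, against 29.6% of all tested genes (15.3% higher and 14.3% lower), and nothing particular to these lists is read from it. Their median log2 fold change was 0.01, against -0.01 over all tested genes. Among the 5 further ligand genes, Egf rose, Nrg4 did not pass and Epgn, Nrg2 and Nrg3 were too low to test. Egf, the epidermal growth factor gene, had 11.8, 16.9 and 15.5 CPM in p63KO, against 3.28, 2.66 and 1.83 CPM in control (log2 fold change 2.50, SE 0.24, edgeR adjusted p = 5.99e-05). All p63KO libraries were well above all control libraries. In the RefSeq gene order, Epgn, Ereg, Areg and Btc are neighbours on 1 chromosome, and Btc was the only one of these 4 with enough counts to test. With Nrg2 tested, as in the fit without p63KO replicate 2 or without control replicate 2, 1 of the further ligand genes fell.

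Of 13 genes that cut the ligand precursors free or restrain that cut, 3 rose, 4 fell and 6 did not pass (53.8% called, against 29.6% of all tested genes), with a median log2 fold change of -0.23. Timp3, an inhibitor of the shedding metalloproteases, averaged 198.8 ± 5.58 CPM in p63KO and 65.9 ± 14.4 CPM in control (log2 fold change 1.59). Adam9 rose by 0.52 and Adam19 fell by 1.54 on the log2 scale, and Adam10, the most abundant member, was at -0.04 (SE 0.06). Adam17, the main sheddase of Egfr ligands, fell by 0.23 (SE 0.06, edgeR adjusted p = 0.021). The number of members that fell was 2 without p63KO replicate 1, p63KO replicate 2 or control replicate 1.

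Of 20 tested adaptor and exchange factor genes, 6 rose, 1 fell and 13 did not pass, with a median of 0.02. The called share of 35.0% was near the 29.6% of all tested genes. Gab1, a docking protein of activated receptors, averaged 100.3 ± 0.744 CPM in p63KO and 153.6 ± 12.9 CPM in control (log2 fold change -0.62), and its relative Gab2 and the exchange factor Vav3 rose by 0.84 and 0.83. Grb10, the most abundant member, was at 0.48 (SE 0.14, edgeR adjusted p = 0.0323). Its call was lost with DESeq2 (adjusted p = 0.055) and, in edgeR, without p63KO replicate 2 or 3 (adjusted p = 0.0961 and 0.0691) or control replicate 1 or 3 (0.104 and 0.069). Without control replicate 1, 3 adaptor genes rose.

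Of 30 genes of the Ras, Mapk, Pi3k and Stat cascade, 7 rose, 6 fell and 17 did not pass (43.3% called, against 29.6% of all tested genes), with a median of 0.02. Pik3r2, a regulatory subunit of phosphoinositide 3-kinase, averaged 83.8 ± 4.72 CPM in p63KO and 201.8 ± 13.9 CPM in control (log2 fold change -1.27). Hras and the kinase gene Jak1 fell by 0.93 and 0.50 on the log2 scale. Akt1, the most abundant member, rose by 0.38 (SE 0.07).

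Of 28 tested genes of receptor inhibition and feedback, 4 rose, 7 fell and 17 did not pass (39.3% called, against 29.6% of all tested genes), with a median of -0.06. Dusp7, a phosphatase of Erk, averaged 25.7 ± 1.46 CPM in p63KO and 92.0 ± 6.47 CPM in control (log2 fold change -1.84). Spred2, an inhibitor of Ras-Erk signalling, fell by 1.07 and Lrig3, of a family of ErbB-binding membrane proteins, by 1.23. Lrig1, the most abundant member, which marks ErbB receptors for breakdown, was at -0.18 (SE 0.10) and did not pass (edgeR adjusted p = 0.245), but fell without control replicate 3 (-0.29, adjusted p = 0.0249). The feedback genes Spred3 and Dusp4 rose by 1.15 and 1.10 on the log2 scale. Without control replicate 2, 2 members rose.

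Of 22 tested immediate early and Erk-responsive genes, 3 rose, 4 fell and 15 did not pass, with a median of 0.06. The called share of 31.8% was about that of all tested genes, 29.6%. Ccnd1, the cyclin D1 gene and the most abundant member, averaged 388.7 ± 44.4 CPM in p63KO and 186.3 ± 23.6 CPM in control (log2 fold change 1.06). Etv1, an Ets factor, rose by 2.36 and Fosl2, an AP-1 subunit, fell by 1.11. Fos and Egr1, early targets of Erk, were at -0.17 (SE 0.40) and 0.55 (SE 0.52) and did not pass. Without control replicate 2, 5 members rose.

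**Figure D4:**
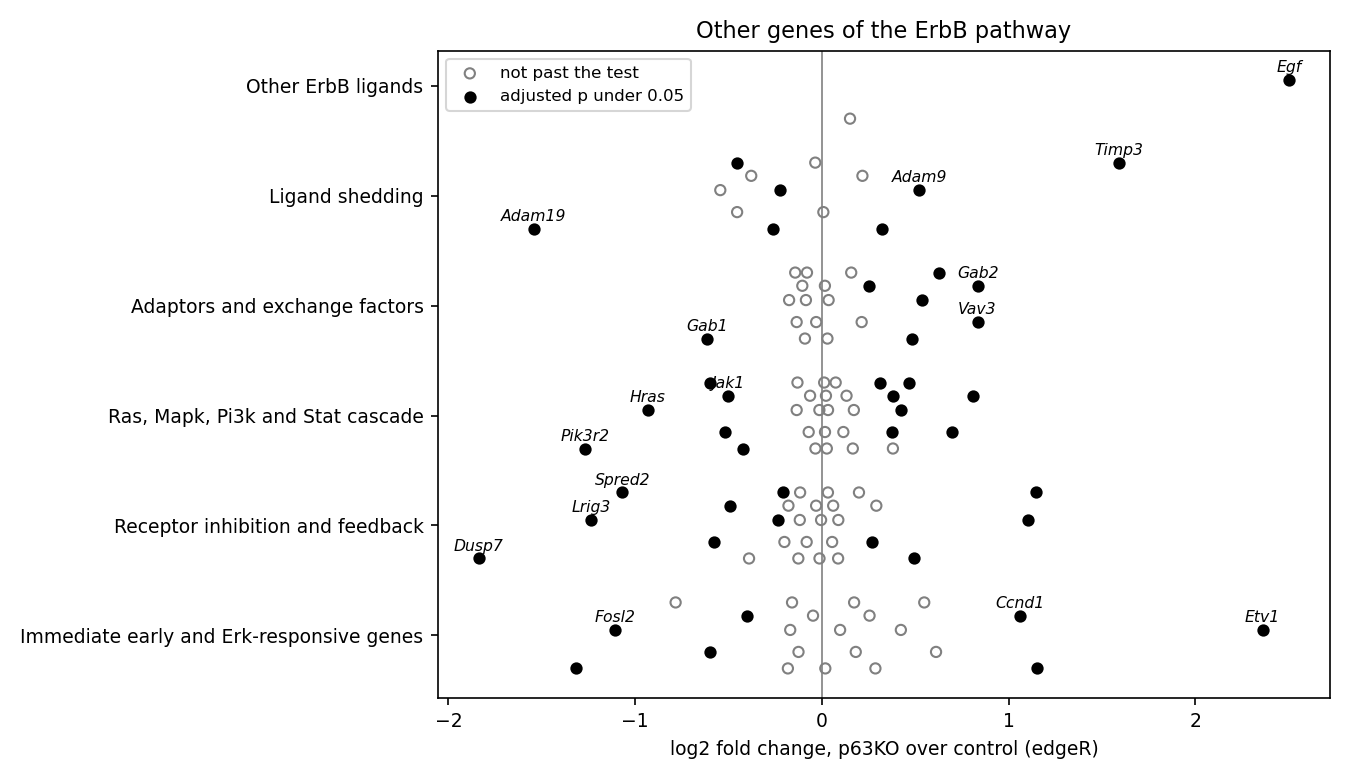
Log2 fold change of p63KO over control (x axis, edgeR) for each tested gene of the 6 pathway lists (rows), filled where the adjusted p was under 0.05, with up to 3 changed genes of lowest p named per list; the vertical spread within a row has no meaning. Rises and falls occur in every list except the further ligands, where Egf rose by 2.50.

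Markers of several cell types moved with the fall of Egfr and the rises of Tgfa and Egf, and their counts stand against the 29.6% of all tested genes that changed. Of the 13 epithelial markers, 5 rose, 4 fell and 4 did not pass (69.2% called), with sums of 5408 to 5673 CPM in p63KO and 6056 to 6812 CPM in control. The basal keratin genes Krt5 and Krt15 averaged 6.95 and 226.9 CPM in p63KO, against 233.6 and 1284 CPM in control. The lower epithelial sums in p63KO therefore do not give the direction of the other members of that list. The other keratin genes listed, Krt8, Krt18 and Krt19, rose by 0.44, 0.68 and 0.38 on the log2 scale. All 13 tested neuroendocrine markers, of 14 listed, rose. Their sums were 499.4 to 646.4 CPM in p63KO and 5.16 to 10.2 CPM in control. Of the 14 mesenchyme markers, 4 rose and 5 fell (64.3% called), with a median log2 fold change of -0.74. Their sums were 1463 to 1858 CPM in p63KO and 591.0 to 721.6 CPM in control. Dcn, at 1222 ± 151 CPM in p63KO and 159.0 ± 49.1 CPM in control, made up most of the sums in p63KO. The higher sums therefore do not give the direction of the other members. Of 9 tested neural crest and Schwann markers, of 13 listed, 1 rose, Ret, and 2 fell (33.3% called), with a median log2 fold change of -1.05. Their sums were 110.2 to 132.3 CPM in p63KO and 29.2 to 58.9 CPM in control. Ret, at 99.2 ± 10.7 CPM in p63KO and 3.49 ± 1.08 CPM in control, made up most of the sums in p63KO. The Schwann markers S100b and Cdh19 were below 1 CPM in every library. Muscle markers summed to 27.6 to 51.5 CPM in p63KO and 69.1 to 157.5 CPM in control, with 2 of 4 tested members (50.0%) lower, among them Acta2, the most abundant. Blood markers summed to 11.2 to 24.6 CPM in p63KO and 2.69 to 39.0 CPM in control, mostly Hbb-y, with 3 of the 9 listed at 0 in every library. Esam was the most abundant endothelial marker. The part of these cell types in the members' values was not tested.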

How the data were processed

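The authors deposited 1 table of raw, whole-number counts by gene symbol with 6 library columns, tied to samples through the sample descriptions. The submitters' processing notes name bcl2fastq 1.8.4, TopHat2 2.1.0, build mm9 and DESeq2 without a version. The counter, annotation, strand setting and read layout are not settled by these sources, so reads of overlapping or antisense genes cannot be told apart. Per the labels' protocols, a PicoPure kit gave the RNA and an Illumina TruSeq kit the libraries.

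The analysis used R 4.3.3 and edgeR 4.0.16. Of 18572 genes with a count, filterByExpr (minimum count 10, total 15) kept 13849. After TMM scaling, the quasi-likelihood test set p63KO against control with no covariate, and Benjamini-Hochberg adjustment ran over all genes tested. The SE is the absolute log2 fold change over the square root of F. No replicate libraries agreed within sampling noise (chi-square per degree of freedom of at least 7.87).

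The members and lists were chosen with earlier results of these data known. Beside Trp63 and the members, the rule named the 3 changed genes of lowest p and the most abundant gene of each pathway list, the most abundant gene of each marker list and the 3 genes most alike each receptor. Of this rule, 1 gene of a marker list is not reported here. Adam17, Spred3, Dusp4, Fos, Egr1, Krt5, Krt15, Krt8, Krt18, Krt19, S100b, Cdh19, Nrg4 and the untested ligands were named after their values were seen. Alternatives were DESeq2 1.42.0, limma-voom (limma 3.58.1), other scalings and filters, a replicate block, each library left out and an adjusted p under 0.01.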

Additional observations from a re-analysis of the deposited data

How the results depend on the processing

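Across the alternatives tried, Egfr fell and Tgfa rose in every fit. The median log2 fold change of all tested genes stayed within 0.1 of 0 under each scaling. Scaling itself largely sets that median, so it says nothing on the members. The number of members that rose was 2 with limma-voom and with the replicate block, Btc joining Tgfa, and 1 to 2 with 1 library left out. The number that fell was 1 to 2 with 1 library left out and 1 at an adjusted p under 0.01, where Erbb2 was lost. At that threshold 2580 of all genes and 15 rising and 16 falling pathway genes were called, against 4098, 24 and 22 at 0.05. With 1 library left out, 3150 to 3771 genes changed, of the pathway genes 18 to 21 rose and 17 to 23 fell, and fewer samples entered each of those fits. With 1 library left out, the log2 fold changes of Erbb3 (-0.043 to 0.101), Erbb4 (-0.26 to 0.30) and Adam10 (-0.079 to 0.0049) fell on both sides of 0 without passing the test: the sign turned without p63KO replicate 2 for Erbb3 and Erbb4, without control replicate 3 for Erbb4 (-0.14) and without p63KO replicate 1 for Adam10. The receptor differences ranged from -3.18 to -2.84 for Egfr, 0.18 to 0.37 for Erbb3 and 0.03 to 0.57 for Erbb4 with 1 library left out, and a pseudocount of 2 gave -2.98, 0.28 and 0.35.

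The titles number the replicates 1 to 3 in both groups. Deviations from the group means correlated at 0.22, 0.28 and 0.06 between same-numbered samples over 13849 genes, so the third pair is under 0.1 and the numbers are not shown to pair the samples, although each p63KO sample correlated best with its own number. With the replicate block, 4778 genes changed, 26 pathway genes rose and 25 fell. The depth limits Nrg1, Areg and Ereg, which could not be tested.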
